A study of Mus musculus with 24 samples.

Results

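The miRNAs described here are 42 mature miRNAs of the Dlk1-Dio3 imprinted cluster, taken by name from a fixed list and measured in liver and serum of mice on a steatohepatitis diet. All 42 were on the array, among 1881 mouse miRNAs in all, and 39 of them matched a mature miRNA in RefSeq (GRCm38.p6). The mice were male C57BL/6NJcl, bought at 5 weeks of age and acclimatized for 1 week, and the labels name no transgene or mutation. The NASH group (non-alcoholic steatohepatitis model) ate CDAHFD, a high-fat diet without choline that held 0.1% (w/v) methionine, and the control group ate the standard chow CE-2. Tissue collection, of the liver and of blood drawn from the heart, followed 1, 2 or 6 weeks of feeding, at 7, 8 and 12 weeks of age. Each combination of tissue, diet and week had 2 arrays, which gave 12 groups and 24 arrays. Whether both arrays of a group stand for different mice is not given in the labels, so each p-value reflects only array-to-array spread, which may be technical.

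The Dlk1-Dio3 locus is an imprinted domain of mouse chromosome 12. Its protein-coding genes Dlk1, Rtl1 and Dio3 are expressed from the paternal allele, and the long noncoding RNAs Meg3, Rian and Mirg and the miRNAs from the maternal allele. The miRNAs are thought to be cut from long transcripts of that allele. Many are abundant in the embryo, placenta and brain, and most are low in the adult liver.

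In GRCm38.p6 the 39 matched miRNAs lie on the plus strand between chr12:109572004 and chr12:109743784, over 171.781 kb. They form a proximal segment of 13 miRNAs, from miR-673-5p to miR-370-3p, and a distal segment of 26, from miR-379-5p to miR-410-3p, with a gap of 90.739 kb between miR-370-3p and miR-379-5p. Of the 39, 11 lie within the span of Rtl1, to which the maternal miRNAs there are antisense, 2 within Rian and 7 within Mirg, and 19 within none of the locus genes Dlk1, Meg3, Rtl1, Rian, Mirg and Dio3. The mature sequences from RefSeq below are of the 6 miRNAs that passed a test in liver, of the 1 bright miRNA of the cluster, and of 3 close relatives. The prefix mmu-, for mouse, is left out of names elsewhere. Capitals mark the seed, bases 2 to 8, which pairs with targets.
mmu-miR-127-3p (chr12:109592888-109592909): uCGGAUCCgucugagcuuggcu
mmu-miR-434-3p (chr12:109594565-109594586): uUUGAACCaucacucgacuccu
mmu-miR-136-5p (chr12:109595331-109595352): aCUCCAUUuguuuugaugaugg
mmu-miR-379-5p (chr12:109709065-109709085): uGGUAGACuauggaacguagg
mmu-miR-300-3p (chr12:109724363-109724384): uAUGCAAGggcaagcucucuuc
mmu-miR-381-3p (chr12:109726870-109726891): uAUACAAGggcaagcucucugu
mmu-miR-154-5p (chr12:109738438-109738459): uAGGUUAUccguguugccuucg
mmu-miR-376b-3p (chr12:109723508-109723528): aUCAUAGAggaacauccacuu
mmu-miR-376a-3p (chr12:109723824-109723844): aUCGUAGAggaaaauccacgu
mmu-miR-494-3p (chr12:109715367-109715388): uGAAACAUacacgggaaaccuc
The 39 miRNAs had 39 different seeds, so that no 2 of them shared one. The seed of miR-379-5p is also that of miR-1193-5p, another miRNA of the locus. Aligned from the 5′ end, miR-300-3p and miR-381-3p differ at 3 of 22 bases and miR-376b-3p and miR-376a-3p at 3 of 21, and how far each probe also binds its close relative was not tested.

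The RefSeq promoter window of Meg3, the first noncoding gene upstream of the miRNAs, is shown because the long maternal transcript is thought to start there. It runs from 250 bases before to 50 bases after the start of the gene, at chr12:109540746-109541045 on the plus strand.
Meg3 promoter: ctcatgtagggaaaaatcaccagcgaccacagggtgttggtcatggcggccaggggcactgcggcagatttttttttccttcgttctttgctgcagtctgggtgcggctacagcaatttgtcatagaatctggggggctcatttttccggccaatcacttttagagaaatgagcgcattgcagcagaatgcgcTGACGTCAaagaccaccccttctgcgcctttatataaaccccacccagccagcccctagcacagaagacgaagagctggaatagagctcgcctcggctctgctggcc
The capitals mark TGACGTCA, the palindromic cAMP response element, whose first base is 57 bases before the start. The search covered both strands, which read alike for this motif. It was found in 588 of 32851 promoter windows of the same length (1.79%), and in 1 of 6 windows listed for Dlk1, Meg3, Rian, Mirg and Dio3. The arrays measured no binding at this site.

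There are 2 measures below. The first is the scanner software's detection flag for each miRNA on each array. The second is the signal of a miRNA's brightest probe as a percentage of the array's reference level, the 75th percentile of those probes that exceeded background on each of that tissue's 12 arrays. For the tests, signals below a floor of 2.25% of the reference in liver and 3.81% in serum were set to it before log2 was taken. The floor is the level under which 5% of the signals well above background fell on the median array. Levels of different miRNAs come from different probes and were not compared with each other. In these bulk samples, fewer cells of a type and less RNA per cell cannot be told apart. The labelled liver was checked on its defining miRNAs: 5 of 5 hepatocyte miRNAs were detected, and 4 of 4 neuronal miRNAs were detected on no liver array.

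In liver, Dlk1-Dio3 miRNAs were detected mostly on NASH arrays, and most often at week 6. The control arrays detected 1 and 3 of the 42 at week 1, 1 and 1 at week 2, and 1 and 7 at week 6. The NASH arrays detected 12 and 8 at week 1, 8 and 14 at week 2, and 16 and 24 at week 6. NASH and control arrays did not overlap in any week, and the lowest NASH array of all held 8 against 7 on the highest control array. More miRNAs of any kind were also detected on NASH arrays, 337 to 379 of 1881 against 253 to 307 on control arrays, and the part of this in the cluster's counts was not tested.

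**Figure D1:**
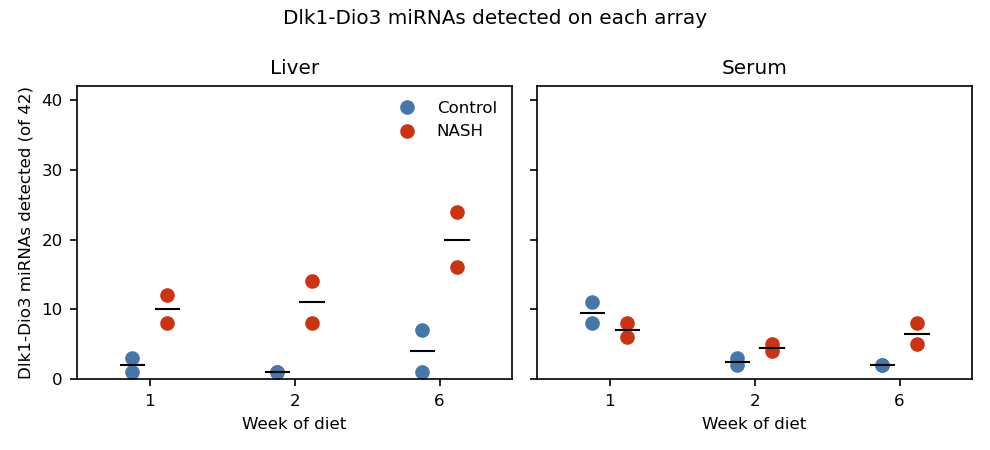
Number of the 42 Dlk1-Dio3 miRNAs detected on each array (vertical axis) by week of diet (horizontal axis), in liver and in serum; points are arrays and short lines the means of 2 arrays. In liver the NASH arrays reach 16 and 24 at week 6 while the control arrays lie at 1 and 7; in serum no array exceeds 11.

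Of the 42 miRNAs, 17 were detected on no liver array, 8 on 1 array and 17 on 2 or more. In control liver 34 were detected on no array. In NASH liver 18 were detected on no array, and 17 were detected on NASH but on no control array. There were 23 miRNAs with more NASH than control detections and 1, miR-487b-3p, with fewer; miR-494-3p was detected on every liver array. The miRNAs detected on all 6 NASH arrays were miR-127-3p, miR-136-5p, miR-379-5p, miR-494-3p, miR-376b-3p, miR-300-3p and miR-154-5p. From week 2 to week 6, 15 miRNAs were detected on more NASH arrays and 0 on fewer. First detected in NASH liver at week 6 were 10 miRNAs: miR-337-5p, miR-434-5p and miR-410-3p on both arrays, and miR-543-3p, miR-495-3p, miR-381-3p, miR-382-5p, miR-541-5p, miR-409-5p and miR-409-3p on replicate 2 alone. Replicate 2 was the higher array at week 6 for 16 of the 17 tested miRNAs, and it detected the most miRNAs of any kind, 379.

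Along the locus, detection was found in both segments. In the proximal segment 6 of 13 miRNAs were detected on at least 1 liver array, and all 6 were detected on both NASH week 6 arrays. In the distal segment 17 of 26 were detected on at least 1 liver array, 10 of them on both NASH week 6 arrays. Of the 11 within Rtl1 6 were detected on both NASH week 6 arrays, of the 2 within Rian 0, and of the 7 within Mirg 3. The 2 arms of 1 hairpin were not always alike: both arms of miR-337 and of miR-434 were detected on both NASH week 6 arrays, while miR-136-5p was detected on both and miR-136-3p on none.

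**Figure D2:**
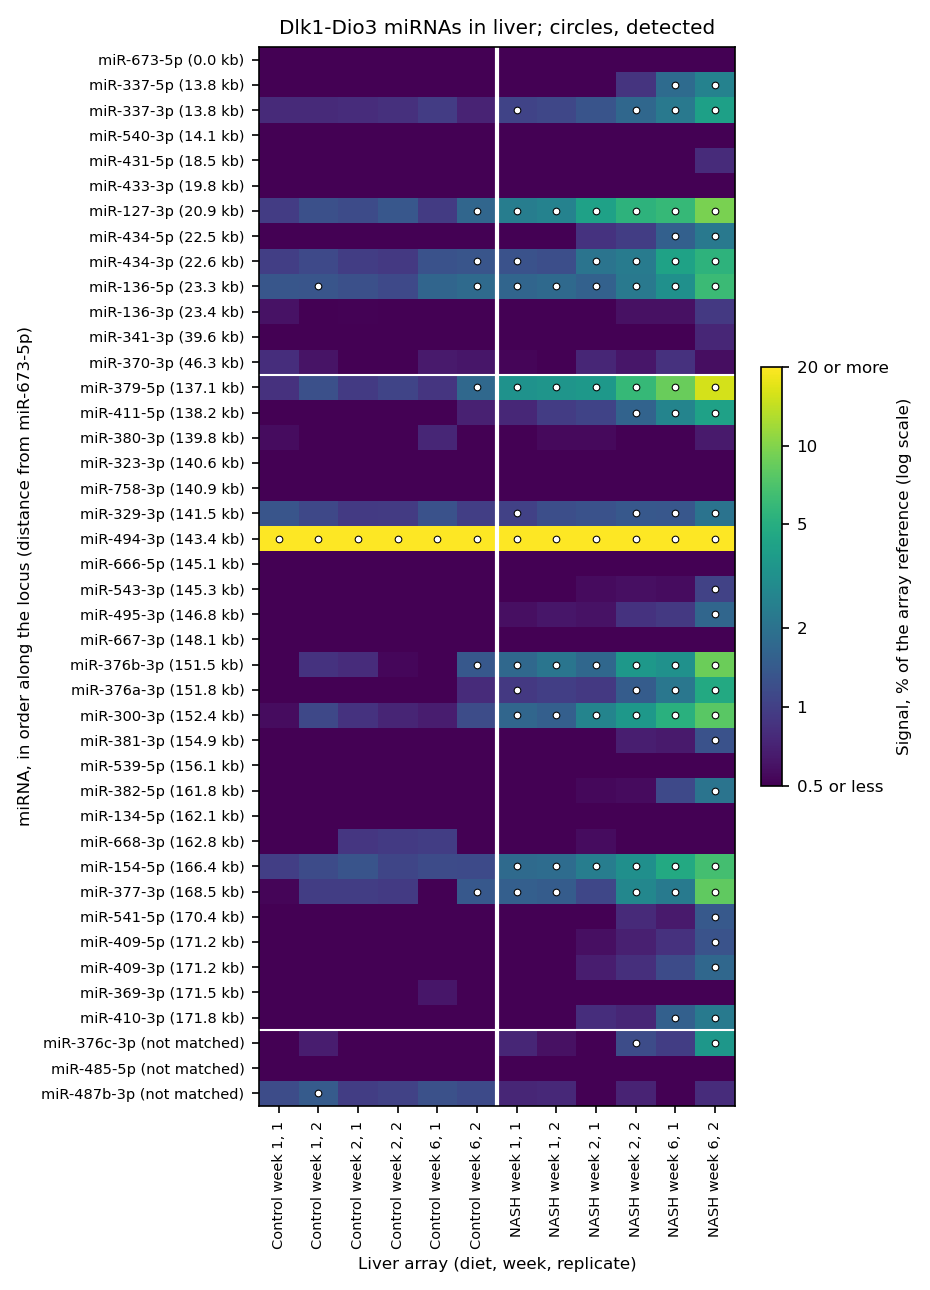
Signal of each of the 42 miRNAs on each of the 12 liver arrays, as percent of the array reference on a log2 colour scale cut at 0.5 and 20; rows follow the locus, with the distance from miR-673-5p in kb, and circles mark detection. White lines part the diets, the proximal from the distal segment, and the 3 miRNAs not matched in RefSeq. Circles fill the right-hand NASH week 6 columns in both segments, and miR-494-3p is bright on all arrays.

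Without a floor or a filter, and over all 42 miRNAs, NASH arrays lay above control arrays without overlap for 21 miRNAs at week 1 (33.3% of all 1881 miRNAs did so), for 32 at week 2 (45% of all) and for 30 at week 6 (33.2% of all). All 6 NASH arrays lay above all 6 control arrays for 14 of the 42, against 8.56% of all miRNAs. They lay below for 1, miR-487b-3p, against 2.87%. Under 4 other scalings of the arrays the count of 14 was 11 to 14, beside 5.79% to 9.3% of all miRNAs. Among NASH arrays, week 6 lay above week 2 for 23 of the 42 (23.8% of all) and below for 2 (18.6% of all); both weeks were hybridised on the same slide. In control liver on that slide, week 6 lay above week 2 for 14 (29.6% of all), a share close to that of all miRNAs, and below for 1 (10.4% of all). These counts include signals too dim to be told from background, such as those of miR-673-5p, which lay between -0.315% and 0.0934% of the reference.

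For the tests, limma was fitted over the 388 miRNAs detected on at least 2 liver arrays, with Benjamini-Hochberg adjustment over all of them, and an adjusted p below 0.05 counted as a call. These included 17 of the 42; the other 25 were not tested. Of the 17, 15 were detected on fewer than 2 control arrays, so that they met the filter only with the help of the NASH arrays; miR-136-5p and miR-494-3p did not need them. On all 6 control arrays 16 of the 17, all but miR-494-3p, lay at the floor. Those 16 could be called higher in NASH but not lower, and the counts are no evidence about the cluster as a whole. In the mean over weeks 5 of 17 were higher in NASH liver, beside 21.6% of all miRNAs tested; lower calls, 20.4% of all, were open to miR-494-3p alone, which was not called. At week 1 0 of 17 were called higher (6.19% of all), at week 2 1 (17.8% of all) and at week 6 6 (12.4% of all). At week 1 both diets lay at the floor on all 4 arrays for 14 of the 17, so the test could find no difference for them, and the count of 0 (0 also at an unadjusted p under 0.05 and under limma with a variance trend and robust prior) rests on miR-127-3p, miR-379-5p and miR-494-3p. With the arrays left out one at a time, 5 to 12 were called at week 6: 12 of the 14 then tested without NASH week 6 replicate 1 and 7 of 13 without replicate 2. In those 2 fits the remaining NASH array is assumed to vary like the other groups, most of which lie at the floor with no spread, so the higher counts do not show a firmer difference. With normexp background correction, which adds an offset of 50 to every signal, 0 were called at week 6 (3.35% of all higher, 13.9% lower). In the mean over weeks normexp called 1 of 17, miR-329-3p, which was lower (8.25% of all higher, 44.3% lower).

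In the proximal segment, miR-127-3p, miR-434-3p and miR-136-5p were called at week 6. All 3 lie within Rtl1 on the opposite strand, and miR-127-3p is known for cutting the Rtl1 transcript in the placenta. miR-127-3p lay at 0.959% and 1.23% of the reference in control liver at week 1, at 1.16% and 1.35% at week 2 and at 0.95% and 1.69% at week 6. In NASH liver it lay at 2.38% and 2.57%, then 4.1% and 5.45%, then 5.96% and 9.55%. Every NASH array was above every control array, and each NASH week was above the week before without overlap. At week 6 the NASH signal was at least 2.94-fold higher than in control (fitted log2 difference 1.75, SE 0.22, adjusted p 0.00175), at week 2 at least 1.99-fold (adjusted p 0.0122), and in the mean over weeks at least 1.83-fold (log2 0.99, SE 0.13, adjusted p 0.0011). These are bounds because the miRNA's probes were not well above background on the control arrays. Like the bounds below, they apply to group means and leave out the spread between arrays. The fitted difference is taken against the floor and is not itself a bound. At week 1 the fitted difference was 0.14 (SE 0.22, adjusted p 1). The week 2 call, the only one of the cluster at that week, was lost with the reference taken over all probes (adjusted p 0.0817), without scaling (0.127) and with normexp (0.696). No miRNA of the cluster was called at week 2 without control week 2 replicate 1, control week 2 replicate 2 or NASH week 2 replicate 2.

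miR-434-3p lay at 0.988% and 1.13% in control liver at week 1, 0.977% and 0.922% at week 2 and 1.27% and 1.33% at week 6. In NASH liver it lay at 1.27% and 1.21%, then 2.08% and 2.33%, then 4.17% and 5.43%. The NASH arrays of week 1 lay below both control arrays of week 6, the nearest pair at 1.2734% and 1.2745%. Those of weeks 2 and 6 lay above all control arrays. At week 6 it was at least 1.85-fold higher in NASH (log2 1.08, SE 0.11, adjusted p 0.000648), and in the mean over weeks it was higher by 0.37 (SE 0.062, adjusted p 0.00349), a value that rests in part on the floor and that normexp turned to -0.16, not called. The other arm of its hairpin, miR-434-5p, was at 1.56% and 2.21% at week 6 in NASH and between 0.086% and 0.313% on the control arrays.

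miR-136-5p lay between 1.12% and 1.78% on the 6 control arrays. In NASH liver it lay at 1.66% and 1.77%, then 1.58% and 2.22%, then 3.17% and 6.21%, so that both arrays of a week stood clear of all control arrays at week 6 only. At week 6 it was at least 1.73-fold higher in the mean of its NASH arrays (log2 0.98, SE 0.27, adjusted p 0.0371). That call was lost without any one of the 10 liver arrays other than the NASH arrays of week 6, with the array reference taken over all probes, without scaling and with quantile normalization (adjusted p 0.068 to 0.122 under those scalings).

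In the distal segment, miR-379-5p, miR-300-3p and miR-154-5p were called at week 6. miR-379-5p opens that segment and has been studied in mouse hepatocytes for its part in the secretion of lipoproteins. It lay at 0.852% and 1.23%, 0.934% and 1.07%, and 0.888% and 1.75% of the reference in control liver at weeks 1, 2 and 6. In NASH liver it lay at 3.29% and 3.43%, then 3.57% and 5.9%, then 8.58% and 15.7%. Every NASH array was above every control array from week 1 on. At week 6 it was at least 4.52-fold higher in NASH (log2 2.37, SE 0.32, adjusted p 0.00212), and in the mean over weeks at least 2.32-fold (log2 1.33, SE 0.18, adjusted p 0.00133). Its second probe was dimmer and went the same way, by 0.90 on the log2 scale at week 6. That of miR-154-5p also did, by 0.53. The second probes of miR-127-3p, miR-136-5p, miR-300-3p and miR-434-3p were well above background on at most 1 liver array. Their week 6 difference was 0.015 for miR-127-3p and 0 for the others, so those calls rest on 1 probe each.

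miR-300-3p lay between 0.562% and 1.17% on the 6 control arrays. In NASH liver it lay at 1.69% and 1.54%, then 2.65% and 3.58%, then 5.22% and 7.84%, and no NASH array reached down to a control array. It was at least 2.49-fold higher at week 6 (log2 1.51, SE 0.20, adjusted p 0.00213), and in the mean over weeks it was higher by 0.65 (SE 0.12, adjusted p 0.00437), a value that normexp turned to -0.033, not called. Its close relative miR-381-3p, printed above, was detected on 1 NASH array, at 1.27%.

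miR-154-5p lies within Mirg. It lay between 0.991% and 1.3% on the 6 control arrays, and in NASH liver at 1.8% and 1.83%, then 2.4% and 3.15%, then 4.71% and 6.67%. Again no NASH array overlapped the control arrays, and each NASH week was above the week before. It was at least 2.18-fold higher at week 6 (log2 1.32, SE 0.18, adjusted p 0.00213), and in the mean over weeks it was higher by 0.54 (SE 0.10, adjusted p 0.00609), which normexp turned to -0.089, not called. With normexp correction none of the 6 was called at week 6. The log2 difference at week 6 fell from 2.37 to 0.59 for miR-379-5p (adjusted p 0.0539), from 1.75 to 0.28 for miR-127-3p and from 1.51 to 0.21 for miR-300-3p. It fell from 1.32 to 0.13 for miR-154-5p, from 1.08 to 0.018 for miR-434-3p and from 0.98 to -0.030 for miR-136-5p. Without scaling, where the median of the 218 miRNAs detected on all liver arrays moved from -0.163 to 0.263 at week 6, all 6 differences at week 6 kept their sign and 5 their call, the exception being miR-136-5p.

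**Figure D3:**
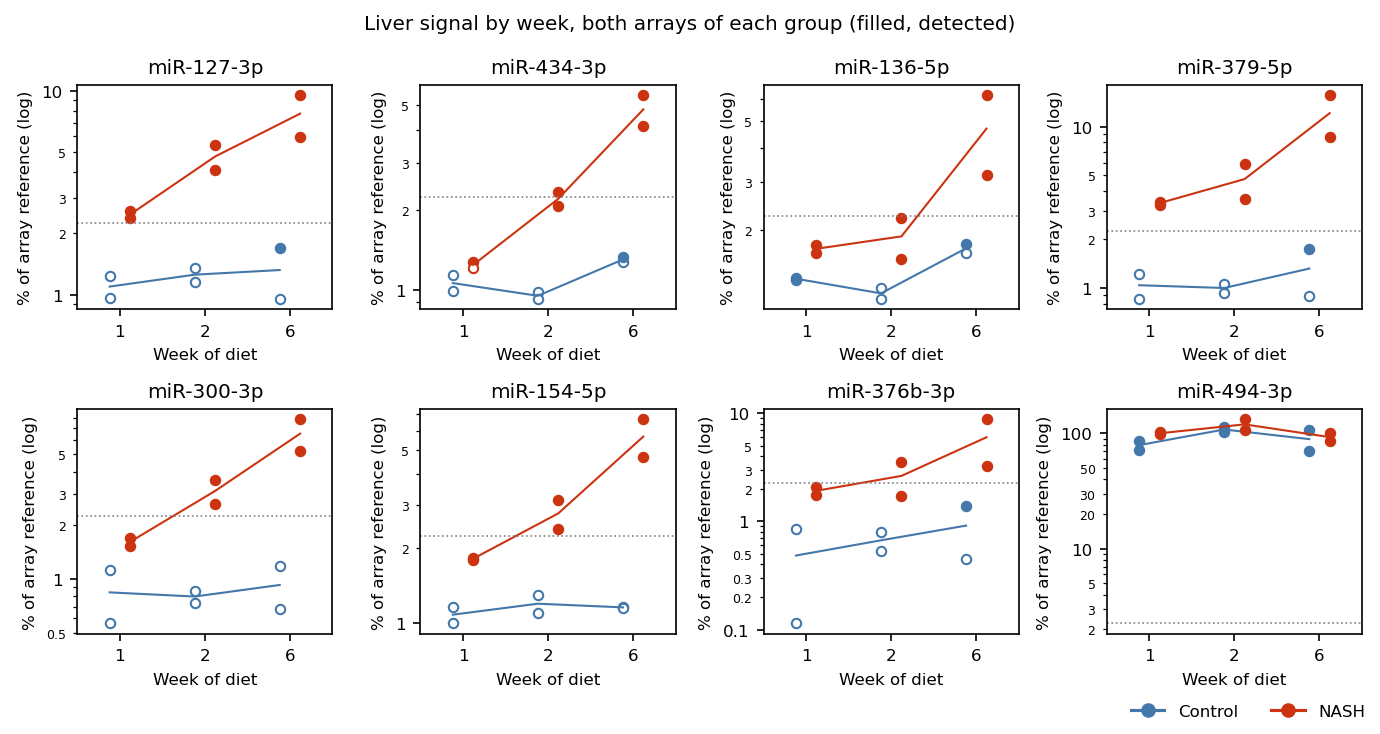
Liver signal of 8 Dlk1-Dio3 miRNAs as percent of the array reference (log axis) against week of diet; points are arrays, filled where the miRNA was detected, lines join the means of 2 arrays, and the dotted line is the floor of 2.25%. The NASH arrays of miR-127-3p and miR-379-5p reach 9.55% and 15.7% at week 6, while miR-494-3p lies between 70.4% and 132% on all arrays of both diets.

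The other 11 tested miRNAs were not called in any liver contrast. The nearest were miR-411-5p (adjusted p 0.0693 at week 6) and miR-376b-3p (adjusted p 0.0846). miR-376b-3p lay at 3.24% and 8.74% in NASH liver at week 6 and between 0.114% and 1.38% on the control arrays, and its NASH arrays of week 6 differed from each other by more than those of the miRNAs called. The miR-376 miRNAs are known as targets of RNA editing in the brain. miR-376a-3p lay at 2.16% and 4.67% in NASH liver at week 6, against at most 0.786% on any control array. miR-377-3p, within Mirg, lay at 2.24% and 8.11% against at most 1.38%. miR-411-5p lay at 2.63% and 4.16% against at most 0.706%. In each of these the week 6 NASH arrays stood above all control arrays although the test was not passed.

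Of the remaining tested miRNAs, miR-337-3p reached 2.23% and 4.08% at week 6 in NASH and miR-337-5p 1.83% and 2.58%. miR-376c-3p reached 0.974% and 3.54% and miR-410-3p 1.55% and 2.28%. miR-329-3p reached 1.35% and 2.04%, and its lower array was close to the highest control array, at 1.33%. The 7 miRNAs detected on NASH week 6 replicate 2 alone lay there between 1.04% and 2.05%. The 16 miRNAs detected on no array of either tissue included miR-134-5p, a regulator of dendritic spines in neurons, at no more than 0.46% of the reference in liver.

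Of the miRNAs detected in liver, only miR-494-3p and miR-487b-3p were not detected on more NASH than control arrays. miR-494-3p was bright in both diets, at 71.8% and 86.5%, 113% and 103%, and 70.4% and 108% in control liver and at 102% and 98.2%, 132% and 108%, and 100% and 85.8% in NASH liver. The groups overlapped, and the mean difference over weeks was 0.19 (95% confidence interval -0.11 to 0.49, adjusted p 0.297), so a rise of the size seen for miR-379-5p lay outside the interval. miR-487b-3p was dim and lower in NASH: it lay between 0.978% and 1.45% on the control arrays and between 0.452% and 0.804% on the NASH arrays, without overlap. It was detected on 1 array only and not tested. Among miRNAs detected on no liver array, miR-668-3p lay below control without overlap in each week and miR-369-3p at week 6. Others of these, such as miR-134-5p, lay above in each week.

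Between weeks of the NASH diet, 0 of 17 changed from week 1 to week 2 (3.09% of all were called higher), with 1 at an unadjusted p under 0.05 and 0 calls under limma with trend and robust prior; 9 of the 17 lay at the floor on all 4 arrays and could show no change. From week 2 to week 6, on the same slide, 2 rose, beside 1.03% of all: miR-434-3p by 1.05 (SE 0.11, adjusted p 0.00491) and miR-154-5p by 1.03 (SE 0.18, adjusted p 0.0326). The call of miR-154-5p was lost when any 1 of 9 liver arrays was left out, and without NASH week 6 replicate 1, where the lone array borrows its spread from groups at the floor, 12 miRNAs were called. With the replicate number as a block neither was called. From week 1 to week 6 5 rose (5.15% of all) and 0 fell (7.22% of all): miR-127-3p by 1.61, miR-154-5p by 1.32, miR-300-3p by 1.51, miR-379-5p by 1.79 and miR-434-3p by 1.08. The call of miR-379-5p was lost without either NASH week 1 array (adjusted p 0.0792 and 0.0795). For miR-154-5p, miR-300-3p and miR-434-3p both NASH week 1 arrays lay at the floor, so the rise is measured from the floor. Week 1 was on another slide than week 6, so for this contrast slide and time cannot be told apart. In control liver 16 of the 17 lay at the floor on all 6 arrays, so a change between weeks could be tested for miR-494-3p alone, which was not called. Of all miRNAs 1.03% rose and 0.515% fell there from week 1 to 2, 0% rose and 0.515% fell from week 2 to 6, and 0.258% rose and 0.258% fell from week 1 to 6.

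Whether the effect of the diet changed with time was tested directly. From week 2 to week 6 the effect grew for 1 of 17, miR-434-3p, by 1.05 (SE 0.15, adjusted p 0.0359), beside 0.773% of all, and shrank for 0, beside 0.258%. From week 1 to week 6 it grew for 4 of 17 (2.84% of all): miR-127-3p, miR-154-5p, miR-300-3p and miR-434-3p. Over the 3 weeks together the F test called 1 of 17, miR-434-3p (adjusted p 0.0299), beside 3.09% of all. For miR-154-5p, miR-300-3p and miR-434-3p all 4 week 1 arrays lay at the floor, so the change from week 1 is the week 6 difference itself and no separate finding. At week 2 miR-434-3p lay at the floor on all arrays but NASH replicate 2, which was just above it. Its change from week 2 thus nearly repeats the week 6 difference. Fitted without a floor, that change was 0.61 and not called (adjusted p 0.234). Without the floor the group means of miR-300-3p at week 1 were 1.61% in NASH and 0.84% in control, and those of miR-154-5p 1.82% and 1.08%. None of these calls held with normexp, without scaling or with the replicate number as a block (adjusted p 0.176 to 0.198 for the 4 with the block). With 1 array left out, 0 to 12 miRNAs were called in each of the 3 tests: 0 without either array of control week 1, NASH week 1 or control week 6, and 12 without NASH week 6 replicate 1, where the lone array borrows its spread from groups at the floor.

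Marker miRNAs of other liver cells moved with the diet as well. Of 8 stellate cell and fibroblast miRNAs 5 were higher in NASH liver in the mean over weeks and 0 lower, and their summed signal lay at 97.6% to 127% of the reference on control arrays, at 146% to 182% on NASH arrays at week 1, 158% to 193% at week 2 and 191% to 236% at week 6. Of 6 leukocyte miRNAs 4 were higher and 0 lower, with sums of 106% to 152% in control and 283% to 427% in NASH liver. Of 5 hepatocyte miRNAs 5 were lower, with sums of 16310% to 18750% in control and 6540% to 12450% in NASH liver. Both endothelial miRNAs and 3 of 4 red cell miRNAs were lower. No muscle miRNA was tested, and the neuronal miR-124-3p, miR-9-5p, miR-9-3p and miR-129-5p were detected on no array. The part of these cells in the change of the Dlk1-Dio3 miRNAs was not tested. Control arrays held 1 pair of slide columns and NASH arrays the other, so the diet and the column on the slide cannot be told apart.

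Among 6 other miRNAs of the locus tested in liver, 2 were higher in NASH in the mean over weeks, beside 21.6% of all: miR-299b-5p, at least 1.64-fold (adjusted p 0.00114), and miR-1188-3p, by 1.23 on the log2 scale (SE 0.39, adjusted p 0.0433). miR-299b-5p was also at least 3.25-fold higher at week 6 and rose by 1.26 from week 2 to week 6 in NASH liver (adjusted p 0.0227). It lay at the floor on all control arrays and was detected on 1 of them. It thus met the filter only with the help of the NASH arrays and could be called higher in NASH but not lower. miR-1188-3p was at least 2.71-fold higher in NASH at week 1 (adjusted p 0.241) and differed by 2.04 on the log2 scale at week 2 and by 0.15 at week 6 (adjusted p 0.0612 and 1), and in control liver its week 6 value was 2.26 above that of week 1 (adjusted p 0.582).

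Over both diets, fewer of the 42 were seen in serum than in liver, with 30 and 17 detected on no array. On NASH arrays these numbers were 32 in serum and 18 in liver. Control arrays went the other way, with 31 in serum and 34 in liver. Less RNA was labelled for a serum array than for a liver array, and its part in these counts was not tested. Over both diets, 2 were detected on 1 serum array and 10 on 2 or more, and the 10 were tested among 426 miRNAs. The control arrays detected 8 and 11 at week 1, 2 to 3 at week 2 and 2 each at week 6, and the NASH arrays 6 to 8, 4 to 5 and 5 to 8. At week 1 NASH arrays lay below control arrays for 28 of the 42 and above for 0, against 26.4% and 13.8% of all miRNAs. At week 2 they lay below for 8 and above for 18 (23.4% and 31.8% of all), and at week 6 below for 15 and above for 17 (29.6% and 33.3% of all). These counts include the 30 miRNAs detected on no serum array, whose signals were too dim to be told from background. They also depend on scaling. The median diet difference of the 196 miRNAs detected on all serum arrays was -0.284, and -0.019 to 0.445 under 4 other scalings. Under those, 15 to 19 lay above at week 6 (18.8% to 28.5% of all). In the mean over weeks 0 of 10 were called, where 4.93% of all were called higher and 13.8% lower; 1 had an unadjusted p under 0.05. In weeks 1, 2 and 6 0 of 10 were called (of all, 0.469%, 1.17% and 5.4% were called higher and 0.939%, 1.41% and 6.57% lower), with 3, 0 and 1 at an unadjusted p under 0.05. In those weeks 3, 4 and 5 of the 10 lay at the floor on all 4 arrays, where no difference could be found. limma with trend and robust prior gave 0 calls in each of these, and normexp correction called 10 in the mean over weeks, all lower, where it called 81.2% of all miRNAs lower. With the replicate number as a block the 1 array that has no number was left out, so NASH serum at week 6 held replicate 2 alone. miR-382-5p was then higher by 0.19 in the mean over weeks and by 0.56 at week 6 on the log2 scale. All its other serum arrays lay at the floor with no spread, so both values rest on that 1 array and are no finding. miR-379-5p was detected on no serum array.

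miR-434-3p and miR-494-3p were detected on all 12 serum arrays. miR-434-3p lay at 8.43% and 9.88% in control serum at week 1, 3.47% and 8.32% at week 2 and 5.86% and 4.45% at week 6. In NASH serum it lay at 2.94% and 3.12%, 4.89% and 4.3%, and 9.97% and 12.5%. NASH arrays were below the controls at week 1, overlapped them at week 2 and were above them at week 6. Neither week passed (log2 -1.26, SE 0.35, adjusted p 0.188 at week 1; 1.13, SE 0.35, adjusted p 0.0848 at week 6), nor did the change of the diet effect between them (2.39, SE 0.50, adjusted p 0.102). Weeks 1 and 6 of serum were on different slides.

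miR-494-3p lay at 86.1% and 16.1%, 98.8% and 40.9%, and 32.9% and 21.9% in control serum and at 20.6% and 16.6%, 29.3% and 9.44%, and 8.77% and 5.84% in NASH serum. The diets overlapped at week 1 and not at weeks 2 and 6. The mean difference was -1.62 (SE 0.53, adjusted p 0.086). Tested among only the miRNAs detected on at least 6 arrays, it was called (adjusted p 0.0384). Over 14 alternative settings, that filter among them, the difference lay between -1.62 and -0.833 and was called in 4. The 2 control arrays of week 1 differed from each other by more than the diets did at that week.

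miR-154-5p was detected on 8 serum arrays, 2 of control and all 6 of NASH. At week 1 it lay at 2.6% and 2.96% in NASH serum, below the 5.37% and 4.71% of control serum. At week 2 the diets overlapped, at 3.19% and 2.91% in NASH and 2.66% and 6.06% in control serum. At week 6 it lay at 4.33% and 5.64% in NASH serum and at 3.26% and 2.39% in control serum. Its mean difference over weeks was -0.12. miR-127-3p was detected on 2 control and 5 NASH arrays but did not exceed 2.63% of the reference on any NASH array, against 3.46% and 4.95% on the control arrays of week 1. miR-370-3p, reported to act on fatty acid oxidation in liver cells, was detected in serum and on no liver array. It fell from 7.64% and 4.63% to values of at most 2.01% on the control arrays of week 6 and was at 1.33% and 1.56% in NASH at that week. None of these differences passed the test, and the serum signal of miR-409-3p, detected on the NASH week 6 arrays alone, was 2.74% and 4.89% there.

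**Figure D4:**
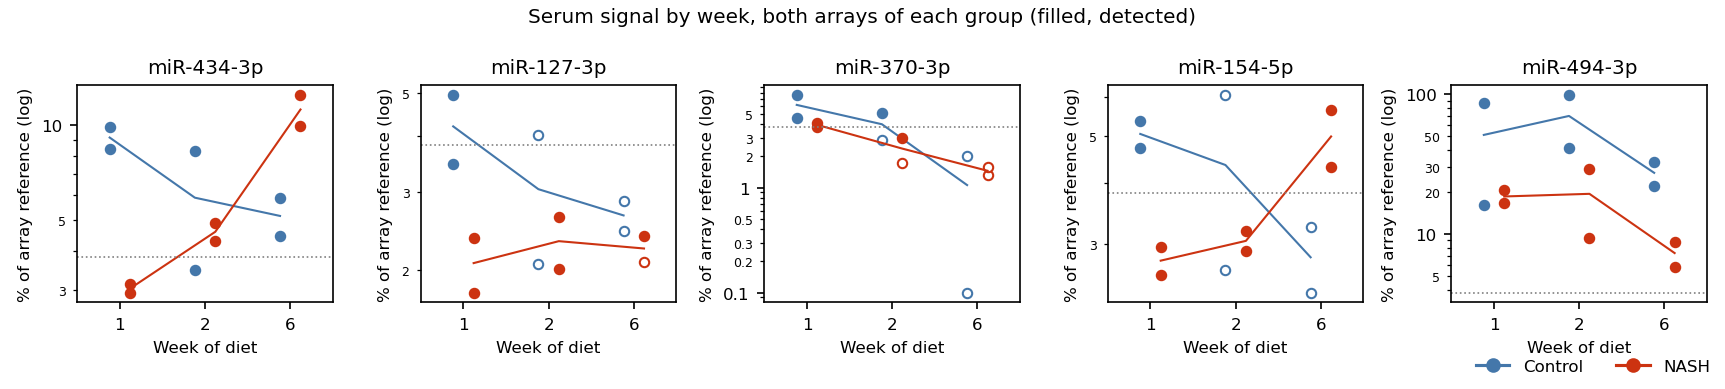
Serum signal of the 5 Dlk1-Dio3 miRNAs detected on at least 6 serum arrays, as percent of the array reference (log axis, with signals under 0.1 drawn at 0.1), against week of diet; points are arrays, filled where detected, lines join the means of 2 arrays, and the dotted line is the floor of 3.81%. For miR-434-3p the NASH arrays lie at 2.94% and 3.12% at week 1 and at 9.97% and 12.5% at week 6.

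The diet effect in serum was set against that in liver in 1 limma fit for the 293 miRNAs tested in both, among them 7 of the cluster. It was lower in serum for 4 of the 7, beside 26.6% of all, and higher for 0, beside 8.19%: miR-127-3p by -1.06 (SE 0.15, adjusted p 5.97e-05), miR-154-5p by -0.66 (adjusted p 0.0071), miR-300-3p by -0.72 (adjusted p 0.000668) and miR-494-3p by -1.81 (adjusted p 0.0175). For the first 3 the liver difference was above 0 and the serum difference between -0.12 and -0.0625. For miR-494-3p the liver difference was 0.19 and the serum difference -1.62. All control liver arrays of the first 3 lay at the liver floor, so their liver difference could not fall below 0. All NASH serum arrays of miR-127-3p and miR-300-3p lay at the serum floor, so their serum difference could not rise above 0. For both, the direction was fixed before the test and is no finding. miR-136-5p, miR-434-3p and miR-337-3p did not pass (adjusted p 0.0691 to 0.435).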

How the data were processed

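Liver RNA (100 ng) or RNA from 200 uL of serum (2.5 ng) was labelled with Cy3, per the labels' protocols. The deposited files hold 1-colour scanner intensity per spot which the authors extracted with Agilent Feature Extraction (per the submitters' processing notes, version 11.5), background-subtracted and not normalized between arrays. From there, 56430 mouse spots of 4415 probes were read without control spots and outlier flags, and a probe's spots were averaged. Signals were divided by the array's 75th percentile over the probes that exceeded background on each of that tissue's 12 arrays (299 in liver, 253 in serum), floored at the 5th percentile of above-background signals (its median across arrays), and put on the log2 scale. The brightest probe stood for a miRNA, and 75.98% of the liver values of the 17 tested cluster miRNAs lay at the floor, where arrays show no spread, so that their SE and p-values can be too small. A fold is given as a bound where no probe was well above background in the lower group. It is a bound on the ratio of group means and leaves out the spread between arrays. limma (version 3.58.1, R 4.3.3) was fitted per tissue to 6 diet-by-week groups, with eBayes and Benjamini-Hochberg adjustment, and tested on simulated data. The number of arrays limits the precision. Each miRNA called in liver, and each detected on at least 6 serum arrays, is named. The members, lists and alternatives were chosen with earlier results of these data known. Sequences are from RefSeq (GRCm38.p6). Alternatives to the background correction, signal, scaling, floor, probe choice, filter, blocks and variance model were tried, and single arrays left out. The one without a floor was chosen after seeing the data.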

Additional observations from a re-analysis of the deposited data

Results flagged for a closer look

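For 4 miRNAs the diet effect in liver differed between weeks in a direct test (limma, adjusted p below 0.05). From week 1 to week 6 it grew by 1.61 on the log2 scale for miR-127-3p, by 1.32 for miR-154-5p, by 1.51 for miR-300-3p and by 1.08 for miR-434-3p, each higher on 2 of 2 NASH arrays at week 6. For miR-434-3p it also grew by 1.05 from week 2 to week 6, with an adjusted p of 0.0299 in the F test over the 3 weeks. At week 2 miR-434-3p lay at the floor on all arrays but NASH replicate 2, which was just above it. Fitted without a floor, the growth from week 2 was 0.61 and not called (adjusted p 0.234). For miR-154-5p, miR-300-3p and miR-434-3p all week 1 arrays lay at the floor, so the growth from week 1 repeats the week 6 difference. These calls were lost with normexp, without scaling and with the replicate number as a block (adjusted p 0.176 to 0.198 for the 4). Of 12 fits that each left out 1 array, those from week 1 to week 6 held in 2 for miR-127-3p, 4 each for miR-154-5p and miR-300-3p and 6 for miR-434-3p. The 2 fits without a NASH week 6 array are in each of these counts, and for miR-127-3p no other fit held. In them the lone array borrows its spread from groups at the floor, so they do not show steadiness.

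For 4 miRNAs the diet effect differed between serum and liver: by -1.06 for miR-127-3p, by -0.656 for miR-154-5p, by -0.716 for miR-300-3p and by -1.81 for miR-494-3p on the log2 scale, each lower in serum. The floor lies at a higher share of the reference in serum (3.81%) than in liver (2.25%). For miR-127-3p and miR-300-3p all control liver arrays and all NASH serum arrays lay at the floor of their tissue. Their direction was thus fixed before the test and is no finding. For miR-154-5p all control liver arrays and most NASH serum arrays lay at the floor. For miR-494-3p no array of either tissue did. The floor's part in the size of the differences was not tested.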

How the results depend on the processing

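Counts are of the 42 miRNAs called, in the order of the report's comparisons, where they moved by over 1.5 times; the cause was not tested unless given. With the software's total signal per miRNA the liver counts were 10 in the mean over weeks, 5 at week 2, 13 at week 6 (26.5%, 22.7% and 18.3% of all miRNAs called higher), 2, 7 and 13 for NASH weeks 2 minus 1, 6 minus 2 and 6 minus 1, 2 and 7 for the diet effect at week 6 minus weeks 2 and 1 and 4 in the F test, and 2 in serum in the mean and at weeks 1 and 6 (20.2%, 2.11% and 17.8% of all called); miR-154-5p turned to 0.47 in the serum mean. With normexp they were 1 in the mean, 0 at weeks 2 and 6, 0 and 1 for NASH weeks 6 minus 2 and 6 minus 1, and 0 in the 3 tests of the difference between weeks, against 10, 10 and 8 in serum in the mean and at weeks 2 and 6, all lower (81.2%, 75.1% and 74.4% of all called lower); in the liver mean miR-154-5p turned to -0.0894, miR-300-3p to -0.0331 and miR-434-3p to -0.164, and miR-136-5p to -0.0304 at week 6. Scaled over all probes, 0 were called at week 2, 2 in each test of the difference between weeks and 1 in serum at week 6. Of all miRNAs, 6.44% were then called higher at week 2 and 0.773% in the diet effect at week 6 minus 1. Without scaling 0 were called at week 2, for NASH weeks 6 minus 2 and 6 minus 1 and in the 3 tests between weeks, and 1 in serum at weeks 1 and 6. Of all miRNAs, 16.5% were then called higher at week 2, and 0% and 0.773% for NASH weeks 6 minus 2 and 6 minus 1. Quantile normalization called 2 in serum at week 6, and median centring 2 at week 2, 4 in the F test and 1 in serum at week 6. With median centring 16.2% of all miRNAs were called higher in liver at week 2. The mean of the probes called 1 for NASH week 6 minus 2 and 2 for the diet effect at week 6 minus 1, and a floor at the 1st percentile 2 at week 2. In the same order, 0.773%, 2.06% and 20.4% of all miRNAs were called higher. Filtered to miRNAs detected on at least 6 arrays, 2 were called at week 2 (24.1% of all called higher) and 1 in serum in the mean and at week 6. Filtered to all 12 arrays, which leaves miR-494-3p alone of the cluster in liver, 0 were called in each liver comparison, and 1, 1 and 2 in serum in the mean and at weeks 2 and 6, and 1 between the tissues. With that filter 25.2% of all were called higher and 33% lower in the liver mean, and 34.9% lower in serum than in liver. Without a floor 15 were called in the mean, 1, 10 and 15 at weeks 1, 2 and 6, 12 for NASH week 6 minus 1, 0 for the diet effect at week 6 minus 2 and in the F test, 1 and 3 in serum in the mean and at week 6, and 7 between the tissues. Of all miRNAs, 36.3% were then called higher in the liver mean and 11.1%, 34% and 21.6% at weeks 1, 2 and 6. For NASH week 6 minus 1 it was 7.22%, and 34.8% were lower in serum than in liver. With the total signal, 3.35%, 2.32% and 9.02% of all rose for NASH weeks 2 minus 1, 6 minus 2 and 6 minus 1.

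Leaving out 1 array gave 5 to 12 calls in the liver mean, 0 to 3 at week 2, 5 to 12 at week 6, 0 to 1, 1 to 12 and 4 to 12 for NASH weeks 2 minus 1, 6 minus 2 and 6 minus 1, 0 to 12 in each test of the difference between weeks, 0 to 2 in the serum mean and at week 1, 0 to 1 at week 6 and 4 to 6 between the tissues. A lone array left in a group takes its spread from the other groups, and where those lie at the floor the spread is near 0, so the counts of 12, all without NASH week 6 replicate 1, do not show steadiness. The variance trend and robust prior changed no count by over 1.5 times, nor did the slide block, under which contrasts across slides could not be fitted.

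Same-numbered liver arrays of both diets deviated together at weeks 2 and 6 (correlations 0.334 and 0.441) but not at week 1 (-0.464), so the numbers were not taken to pair the liver arrays. In serum the correlations were 0.532, 0.126 and 0.178 at weeks 1, 2 and 6, but 1 array of week 6 has no number, so whether the numbers pair the serum arrays was not settled. With the replicate number as a block, 0 were called for NASH week 6 minus 2, 1 for week 6 minus 1 (1.03% of all called higher) and 0 in the 3 tests of the difference between weeks. In serum that block left 1 NASH array at week 6. The difference of miR-382-5p there rests on that array alone, with its other serum arrays at the floor. Signal over background limits all of these: most control values lay below the floor.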
